A study of Mus musculus with 9 samples.

Results

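The 81 genes described here encode the proteins of the cytosolic ribosome in mouse, 49 of the large subunit and 32 of the small subunit. They were chosen by name from 47729 genes: symbols made of Rpl or Rps, an optional p, a number and an optional letter a, x or l, plus Rpsa and Rpl22l1, without symbols of named pseudogenes. The rule uses names and no measured value, though it was set with earlier results of these data known. Genes of the cytosolic ribosome whose names have another form, such as Gnb2l1, Fau and Rps3a1, are outside the set.

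A ribosome holds a single copy of nearly every ribosomal protein beside its ribosomal RNAs. The small subunit binds the messenger RNA and reads its codons, and the large subunit joins the amino acids and passes the chain through an exit tunnel. Most of these genes are expressed in every cell. Their transcripts commonly start with a pyrimidine tract, which lets the mTOR pathway adjust their translation, and the genome carries many processed copies of them.

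The data were RNA-seq counts from midbrain dopamine neurons of C57/Bl6 mouse embryos at E15.75, the age the study gives. All groups carried a Pitx3-Cre/+ allele and a Rosa-lox-stop-lox-Yfp reporter, so Cre was driven by a gene active in post-mitotic dopaminergic precursors, and YFP-positive cells were isolated by FACS. The groups differed in Dot1l, which encodes the histone H3 lysine 79 methyltransferase: Dot1l(+/+) with 3 libraries, Dot1l(fl/+) with 3 and Dot1l(fl/fl) with 2, while the sample labelled Dot1l(fl/fl) 3 was not analysed here. Several embryos were pooled for each library, taken as sets of the 3 genotypes from the same litters. Library totals ranged from 13616922 to 43674673 counts, and both libraries labelled Dot1l(fl/fl) were shallower than any other.

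Dot1l (ENSMUSG00000061589, GRCm38 chromosome 10, 80755206 to 80795461) was read first as a check of the labels. Its transcript stood at 105.2, 84.6 and 94.6 CPM (counts scaled to library size with TMM factors) in Dot1l(+/+), at 75.5, 65.6 and 76.2 CPM in Dot1l(fl/+), while the libraries labelled Dot1l(fl/fl) 1 and 2 had 64.9 and 99.1 CPM. The library labelled Dot1l(fl/fl) 2 lay within the Dot1l(+/+) range. Counts of the whole gene cover more than the floxed exon, so this level does not settle the genotype, and every direction below that rests on this group rests on 2 libraries of which the check separates 1. Below, Dot1l(fl/fl) means the libraries so labelled. The 13 dopaminergic neuron markers summed to 6822 to 7747 CPM in Dot1l(+/+), 6733 to 7219 CPM in Dot1l(fl/+), while those labelled Dot1l(fl/fl) 1 and 2 reached 6525 and 5447 CPM, against 7.06 to 20.0 CPM for 11 endothelial and mural markers and 11.9 to 41.3 CPM for 10 blood markers.

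Named processed copies of the members lay across the genome, and the first set of sequences shows how closely they match. The files list 248 genes named as pseudogenes of a member. Of 55 members with such a copy, 17 had fewer counts than their named copies together. Rps16, a protein of the small subunit head, had a mean of 1.57 CPM over the 8 libraries while Rps16-ps2 had 79.0 CPM. Rps6, the protein that S6 kinase phosphorylates, had 3.40 CPM while Rps6-ps4 had 39.9 CPM. Rps10 had 12.7 CPM while Rps10-ps1 had 59.7 CPM, and Rpl10a had 29.5 CPM while Rpl10a-ps1 had 92.5 CPM.

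The coding sequence of Rps16 (GRCm38 chr7:28350652-28353155, plus) was identical to Rps16-ps2 (chr5:129128077-129128517, minus) over all 438 bases aligned without gaps, and that of Rps6 was identical to Rps6-ps4 over 747 bases. Rps10 (chr17:27630418-27636669, minus) and Rps10-ps1 (chr3:95622278-95622772, plus) differed at 6 of 495 bases (98.8% identity), and Rpl10a (chr17:28328471-28331033, plus) and Rpl10a-ps1 (chr1:64993951-64994604, minus) at 2 of 648 bases. Below, 60 coding bases are given 5′ to 3′ for each gene and its copy, from GENCODE transcripts. They are coding bases 1 to 60 for Rps16 and Rpl10a and 226 to 285 for Rps10, and capitals mark the bases that differ within a pair.
Rps16: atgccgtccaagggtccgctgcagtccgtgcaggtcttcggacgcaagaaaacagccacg
Rps16-ps2: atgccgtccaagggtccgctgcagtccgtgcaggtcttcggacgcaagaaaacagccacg
Rps10: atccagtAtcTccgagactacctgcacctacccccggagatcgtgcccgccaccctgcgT
Rps10-ps1: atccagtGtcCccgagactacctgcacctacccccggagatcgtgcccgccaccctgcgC
Rpl10a: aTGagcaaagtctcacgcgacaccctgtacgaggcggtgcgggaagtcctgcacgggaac
Rpl10a-ps1: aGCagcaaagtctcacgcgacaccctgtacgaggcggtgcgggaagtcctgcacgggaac
Reads from such stretches fit the gene and its copy equally well or nearly so. How the authors' counting treated reads that fit several genes is not given in the sources used here, so counts of the members with close copies are uncertain.

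The extent of shared sequence was measured for the 80 members with an annotated coding transcript, as the share of 50-base windows of that transcript found in no other GENCODE gene on either strand. It ranged from 1.35% in Rps27 to 100% in Rpl3l and Rpl39l among others, with a median of 43.5%, and 77 of the 80 shared at least 1 window with another gene. In the 76 mitochondrial ribosomal protein genes with a coding transcript the median was 97.2%, and 47 shared a window. Shared sequence is thus set beside the levels below.

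Levels of the members spanned a wide range. In Dot1l(+/+) the mean RPKM (CPM per kilobase of merged exons) had a median of 14.7 over the 81 members, with 10 members above 100 RPKM and 24 under 5 RPKM. The 5 members with most counts held 36.3% of all counts of the set. The medians of the large and the small subunit were close, at 13.4 and 15.6 RPKM.

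The highest members of the large subunit per merged exon length were Rpl8 and Rpl4, grouped here as peptidyl transferase and core proteins, and Rplp1 of the stalk. Rpl8 stood at 320.3, 378.1 and 310.1 RPKM in Dot1l(+/+) 1 to 3 (336.2 ± 36.7, SD, n = 3). Rplp1 stood at 283.8, 357.5 and 250.3 RPKM (297.2 ± 54.9) and Rpl4 at 222.3, 250.6 and 222.8 RPKM (231.9 ± 16.2). Rpl8 and Rplp1 overlapped between libraries, and Rpl4 lay below the Rplp1 value of the same library in each of the 3. This order depends on the length used: per length of the coding transcript the mean was 537 RPKM for Rpl8, 438 for Rpl41, 332 for Rpl22, 303 for Rpl4 and 297 for Rplp1.

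In the small subunit Rps15, a protein of the head near the decoding site, was highest per merged exon length, though not per transcript length, at 322.6, 362.9 and 309.7 RPKM (331.7 ± 27.7, SD, n = 3). Rps3, a protein of the mRNA entry channel, stood at 108.6, 123.6 and 98.9 RPKM (110.4 ± 12.5), with no overlap with Rps15.

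At the other end, Rpl3l, the paralog of Rpl3 known from striated muscle, and Rpl10l, known from testis, had 0 counts in every library. At these depths a count of 0 allows up to 3 counts, or 0.0687 to 0.220 CPM, and these limits cover counting error only, because reads carried no molecular identifiers. Rpl39l, also known from testis, had 5, 19 and 0 counts in Dot1l(+/+), 8, 0 and 0 in Dot1l(fl/+) and 0 in both libraries labelled Dot1l(fl/fl). These 3 genes did not pass the filter on low counts, and the other 78 members were tested. The tissue paralog Rpl22l1 differed from them, with 26.3 to 31.9 CPM in Dot1l(+/+), while Rpl22 stood at 140.5 to 170.0 CPM there.

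Several genes of single-copy proteins had counts almost as low as those of these paralogs. Rpl35, at the tunnel exit, had 4, 1 and 41 counts in Dot1l(+/+), 40, 30 and 39 in Dot1l(fl/+), and, in those labelled Dot1l(fl/fl), 12 and 14. Rpl24 had 1 to 41 counts, Rpl38 0 to 64 and Rps29 3 to 76. The lowest of the small subunit were Rps16 (1.33 ± 0.15 RPKM, SD, n = 3), Rps23 (1.62 ± 0.51) and Rps29 (1.64 ± 0.97), which overlapped between libraries. The values of Rpl35, Rpl24, Rpl38 and Rps29 rest on few reads and varied widely within a genotype. Rpl35 and Rpl24 had 4.91% and 18.3% of windows unique, and Rps29 had 64.2%. Rps23 had a mean of 2.80 CPM over all libraries while Rps23-ps1, identical over 425 aligned bases, had 22.2 CPM. For Rpl38 and Rpl38-ps2, identical over 210 bases, the means were 0.648 and 6.23 CPM. The part of shared reads in these low counts was not tested.

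**Figure D1:**
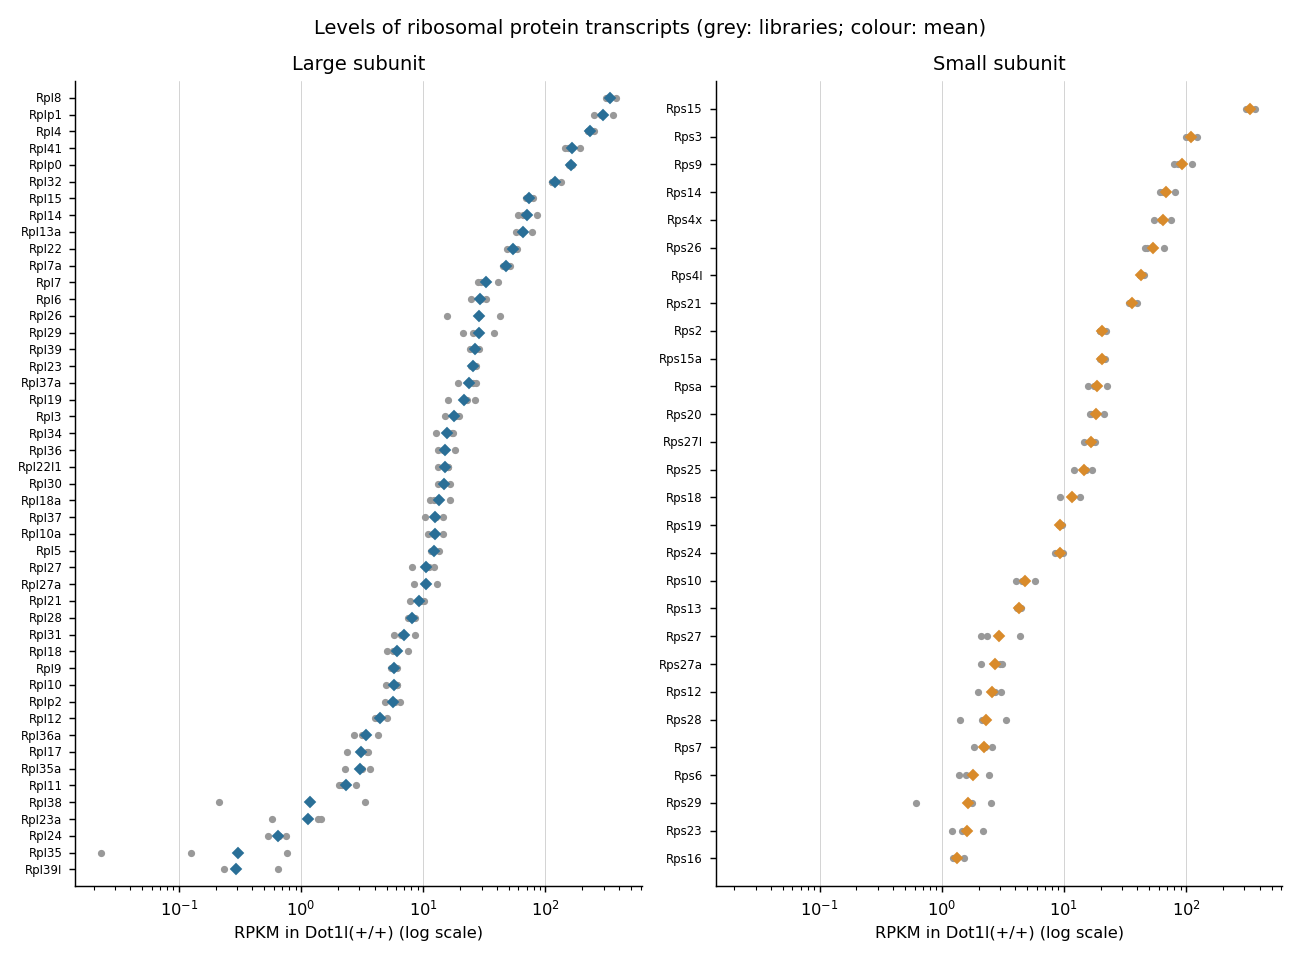
Levels of ribosomal protein genes in Dot1l(+/+), by subunit: grey points are the 3 libraries, coloured diamonds their mean, in RPKM on a log axis, with values of 0 not drawn. Means run from 0.29 RPKM for Rpl39l to 336.2 RPKM for Rpl8, and Rpl3l and Rpl10l, at 0, are left out.

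Members with more sequence of their own stood higher. Of the 26 members with under 25% of windows unique none was above 100 RPKM (1 with the length of the coding transcript), and their median was 5.73 RPKM. The 24 members from 25% to under 50% had a median of 12.6 RPKM and the 18 from 50% to under 75% a median of 30.9 RPKM. The 12 members from 75% upward had a median of 22.3 RPKM and included Rpl8, Rpl4 and Rps3 as well as both genes at 0. Across the 80 genes Spearman's rho between unique share and RPKM was 0.34, or 0.41 with windows of 75 bases. This describes genes of the same libraries, which are not independent replicates, and the part of shared reads in the levels was not tested. Rps16 and Rps29 were low with 58.4% and 64.2% of windows unique, though the coding sequence of Rps16 was identical to Rps16-ps2.

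**Figure D2:**
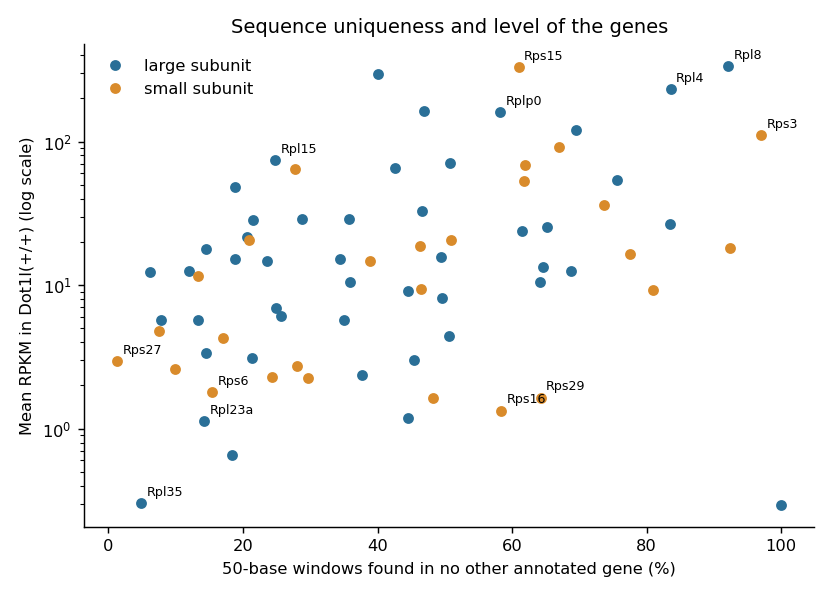
Share of 50-base windows found in no other annotated gene (horizontal, percent) and mean RPKM in Dot1l(+/+) (vertical, log axis) for members above 0, coloured by subunit. The points scatter upward to the right, with Rpl35 and Rpl23a low on the left and Rps3 and Rpl8 high on the right. Rps16, Rps29 and the paralog Rpl39l are low with most of their windows unique, though the coding sequence of Rps16 is shared with Rps16-ps2.

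The start sites were read as a further feature that the choice of members did not use. RefSeq promoters (GRCm38.p6) were matched by symbol for 60 of the 81 members. In the 15 bases on either side of the start, at least 1 of the runs CTTTC or CTTTT or TTCTT lay on the sense strand in 36.7% of these genes, against 10.9% of all 27025 genes in the table and 7.35% of mitochondrial ribosomal protein genes. With both strands searched the shares were 41.7%, 20.1% and 16.2%. The runs may overlap each other, so a site can hold several. The run CTTT beginning exactly at the annotated start was found in 3.33% of the members' genes, Rpl38 and Rplp2, and in 0.492% of all genes.

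Windows of 30 bases around the start are given for 6 members that the results below return to, with these runs in capitals and the annotated start at the 16th base. They lie at chr11:114668565-114668594 (plus) for Rpl38, chr7:141447636-141447665 (plus) for Rplp2, chr7:45718056-45718085 (plus) for Rpl18, chr9:64173372-64173401 (plus) for Rpl4, chr17:27635230-27635259 (minus) for Rps10 and chr4:86857353-86857382 (minus) for Rps6.
Rpl38: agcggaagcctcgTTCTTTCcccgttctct
Rplp2: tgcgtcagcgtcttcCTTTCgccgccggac
Rpl18: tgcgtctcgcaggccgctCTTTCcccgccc
Rpl4: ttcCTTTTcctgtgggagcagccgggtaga
Rps10: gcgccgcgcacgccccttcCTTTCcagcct
Rps6: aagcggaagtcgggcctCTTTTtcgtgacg
A match says only that these letters lie in the window.

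The whole set took a small part of each library. The set held 0.536%, 0.641% and 0.512% of counts in Dot1l(+/+) 1 to 3 (0.563 ± 0.068%, SD, n = 3). It held 0.590%, 0.595% and 0.666% in Dot1l(fl/+) (0.617 ± 0.043%, n = 3). In the libraries labelled Dot1l(fl/fl) it held 0.666% and 0.678% (0.672 ± 0.009%, n = 2). Both libraries labelled Dot1l(fl/fl) lay above all of Dot1l(+/+), by little over Dot1l(+/+) 2, while Dot1l(fl/+) overlapped with Dot1l(+/+) and reached the values of Dot1l(fl/fl). The difference of the means between Dot1l(fl/fl) and Dot1l(+/+) was 0.109 percentage points, and no test was made of this sum over members. In bulk samples of this kind, a change in the mix of cells and a change of RNA per cell cannot be told apart.

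Both subunits followed this order. Large subunit genes held 0.321 ± 0.036% of counts in Dot1l(+/+), 0.351 ± 0.024% in Dot1l(fl/+), then 0.375 ± 0.003% in Dot1l(fl/fl), and small subunit genes held 0.242 ± 0.032%, 0.266 ± 0.019% and 0.297 ± 0.006% (SD, n = 3, 3 and 2). The ratio of small to large subunit counts was 0.742, 0.774 and 0.748 in Dot1l(+/+), 0.759, 0.748 and 0.760 in Dot1l(fl/+), and 0.785 and 0.798 in Dot1l(fl/fl). Named copies held between 23.8% and 25.3% as many counts as the members in all 8 libraries, with no separation by genotype.

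**Figure D3:**
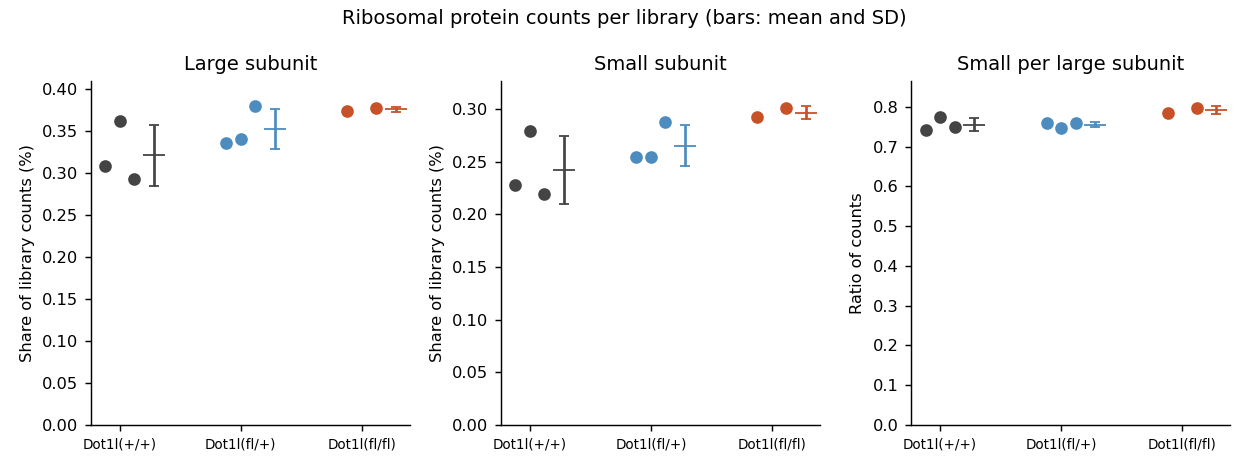
Share of library counts (percent) taken by large and by small subunit genes, and the ratio of small to large subunit counts, in each library by genotype, with the mean and SD beside the points. Both Dot1l(fl/fl) libraries lie above the 3 Dot1l(+/+) libraries in each panel, and the highest Dot1l(+/+) point is always library 2.

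The first comparison, of the libraries labelled Dot1l(fl/fl) with Dot1l(+/+), asks how levels differ when both Dot1l alleles are floxed. Most members were higher by a small amount: 36 of 46 large subunit genes and 26 of 32 small subunit genes had a log2 fold change above 0, with medians of 0.18 and 0.23, against a median of 0.00 and 49.5% above 0 over all 17988 genes tested. No member passed edgeR's quasi-likelihood test at an adjusted p of 0.05, and neither did any other gene (0% of genes tested). At an unadjusted p under 0.05, 8 large and 12 small subunit genes were higher and 1 small subunit gene was lower, against 4.24% and 5.03% of all genes. The large subunit median was 0.29 without Dot1l(+/+) 2, 0.11 without Dot1l(+/+) 3 and 0.10 with an offset for length and GC content, and the small subunit median was 0.37 without Dot1l(+/+) 2.

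In 22 members both libraries labelled Dot1l(fl/fl) lay above all 3 of Dot1l(+/+), and in 6 both lay below, where the background over all genes was 12.1% and 11.6%. DESeq2, run as an alternative, called 5 members, all higher, among them Rps14, Rps15, Rpl4 and Rpl32, and 6.34% of the genes to which it gave an adjusted p. It gave one to 24 of the members only. The dissociation response genes, immediate early and heat shock genes, summed to 946 to 1090 CPM in Dot1l(+/+) and 914 to 1151 in Dot1l(fl/+). In Dot1l(fl/fl) they summed to 1257 to 1279 CPM. Fos, Jun, Junb, Atf3, Ier2 and Dusp1 lay above all other libraries there, while Fosb, Egr1 and the heat shock genes Hspa1a and Hspa1b overlapped. Blood markers reached 41.3 CPM in the library labelled Dot1l(fl/fl) 2. Both libraries labelled Dot1l(fl/fl) also lay below all others in the dopaminergic sum given above. Of its genes, Th, Ddc, En1, En2 and Ret lay below all other libraries in both, and the rest overlapped. Slc6a3 and Pitx3 were highest of all in the library labelled Dot1l(fl/fl) 1, at 826.0 and 237.4 CPM. Both libraries labelled Dot1l(fl/fl) lay above all others in the sum of 6 GABAergic neuron markers, at 264.01 and 235.06 CPM. That sum was 204 to 225 CPM in Dot1l(+/+) and 196 to 231 CPM in Dot1l(fl/+). Of its genes, Slc32a1 alone lay above all other libraries, at 156.0 and 129.3 CPM against 106.0 to 119.7 CPM. Gad1, Gad2, Gata2, Gata3 and Tal1 overlapped with the other groups. The part of these marker differences in the result was not tested.

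Among large subunit genes, the stalk proteins that recruit the translation GTPases had unequal values. Rplp0, the stalk's base protein, stood at 259, 266 and 274 CPM in Dot1l(+/+) and at 282 and 261 CPM in Dot1l(fl/fl), a log2 fold change of 0.03 ± 0.10 (SE). Rplp1 was at 0.26 ± 0.14 and Rplp2 at 0.20 ± 0.32. Rpl12 and Rpl9, at the foot of the stalk, were at -0.27 ± 0.22 and -0.14 ± 0.21.

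The genes grouped as peptidyl transferase and core included the most abundant of the subunit. Rpl4 stood at 446, 503 and 447 CPM in Dot1l(+/+) and at 550 and 568 CPM in Dot1l(fl/fl), without overlap (0.26 ± 0.09, adjusted p = 0.322 by edgeR). Rpl8 stood at 435, 514 and 421 CPM against 598 and 508 CPM, and the second of these lay below Dot1l(+/+) 2 (0.28 ± 0.10, edgeR adjusted p = 0.349). Rpl3 was at 0.16 ± 0.14 and Rpl10 at -0.24 ± 0.34. Rpl5 and Rpl11, which bind 5S ribosomal RNA and also the p53 regulator Mdm2, were at -0.01 ± 0.16 and 0.19 ± 0.31, and Rpl10a of the L1 stalk was at 0.06 ± 0.19.

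At the exit of the peptide tunnel, 6 of the 7 genes followed were above 0, with wide errors. Rpl39 stood at 38.3, 41.1 and 34.6 CPM in Dot1l(+/+) and at 55.6 and 42.6 CPM in Dot1l(fl/fl) (0.37 ± 0.16). Rpl26 was at 0.42 ± 0.27, Rpl31 at 0.08 ± 0.28, Rpl17 at 0.01 ± 0.42 and Rpl23a at 0.13 ± 0.96. Rpl35 had the largest fold change of the subunit, 1.11 ± 1.26, from the counts given above, and Rpl19 the smallest, -0.37 ± 0.25.

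The large subunit genes with the smallest p were Rpl23, Rpl18 and Rpl32. Rpl23 stood at 47.8, 44.4 and 43.4 CPM in Dot1l(+/+), 57.1, 48.7 and 52.9 CPM in Dot1l(fl/+), and 61.7 and 63.1 CPM in Dot1l(fl/fl), so the 3 genotypes did not overlap (Dot1l(fl/fl) against Dot1l(+/+), 0.47 ± 0.14, edgeR adjusted p = 0.266). Rpl18 stood at 22.9, 30.6 and 20.3 CPM, 33.6, 25.3 and 37.6 CPM, and 39.3 and 37.7 CPM (0.65 ± 0.20, edgeR adjusted p = 0.269). Only 25.7% of its windows were unique, and its named copies had 76.7 CPM together, against a mean of 30.9 CPM for Rpl18. Rpl32 was at 0.36 ± 0.12 (edgeR adjusted p = 0.289). Rpl29 was at 0.57 ± 0.22 and Rpl38 at 0.58 ± 1.59, while Rpl36a was at -0.28 ± 0.36. The paralogs Rpl22 and Rpl22l1 were at 0.23 ± 0.11 and 0.10 ± 0.17.

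In the small subunit, proteins of the decoding site and the mRNA channel were mostly above 0. Rps15 stood at 203, 229 and 195 CPM in Dot1l(+/+) and 257 and 299 CPM in Dot1l(fl/fl) (0.41 ± 0.11, edgeR adjusted p = 0.248). Rps3 was at 0.21 ± 0.10, Rps23 at 0.74 ± 0.49, and Rps2, also of the entry channel, at 0.01 ± 0.17. The mean of Rps23 over all libraries was 2.80 CPM, against 22.2 CPM for its copy Rps23-ps1.

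On the platform where the mRNA leaves, Rps14 stood at 146, 193 and 155 CPM in Dot1l(+/+) and 227 and 224 CPM in Dot1l(fl/fl), without overlap (0.45 ± 0.12, edgeR adjusted p = 0.23). Rps26 was at 0.38 ± 0.14, Rps28 at 0.02 ± 0.42 and Rpsa at 0.20 ± 0.18. Unique windows made up 61.9% in Rps14 and 61.7% in Rps26.

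Rps24 and Rps19, genes that are mutated in Diamond-Blackfan anaemia, differed in their values. Rps24 stood at 59.1, 61.8 and 52.7 CPM in Dot1l(+/+) and 74.3 and 84.7 CPM in Dot1l(fl/fl), without overlap (0.46 ± 0.13, edgeR adjusted p = 0.248). Its mean over all libraries was 69.3 CPM, against 85.1 CPM for its named copies together. Rps19 stood at 43.5, 43.1 and 45.1 CPM against 65.9 and 36.4 CPM, with 1 library above and 1 below all of Dot1l(+/+) (0.22 ± 0.21). Rps10, at the edge of the head, stood at 10.54, 13.4 and 9.32 CPM against 17.87 and 17.999 CPM (0.69 ± 0.25, edgeR adjusted p = 0.345), with the close copies shown above. Rps27 had the largest fold change of the subunit, 0.88 ± 0.46, with 1.35% of windows unique.

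The 1 member lower at an unadjusted p under 0.05 was Rps27a, which is made as a fusion with ubiquitin. It stood at 6.18, 5.95 and 4.14 CPM in Dot1l(+/+), 4.84, 4.36 and 5.03 CPM in Dot1l(fl/+), and 2.46 and 3.46 CPM in Dot1l(fl/fl) (-0.88 ± 0.39, edgeR adjusted p = 0.494). The other lowest values were those of Rps29 and Rps16, at -0.59 ± 1.18 and -0.36 ± 0.72. Rps27l, a paralog of Rps27 known as a p53 target, was at 0.53 ± 0.21, Rps6 at 0.34 ± 0.44, Rps12 at 0.17 ± 0.40, and Rps4x and Rps4l at 0.34 ± 0.13 and 0.03 ± 0.16.

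**Figure D4:**
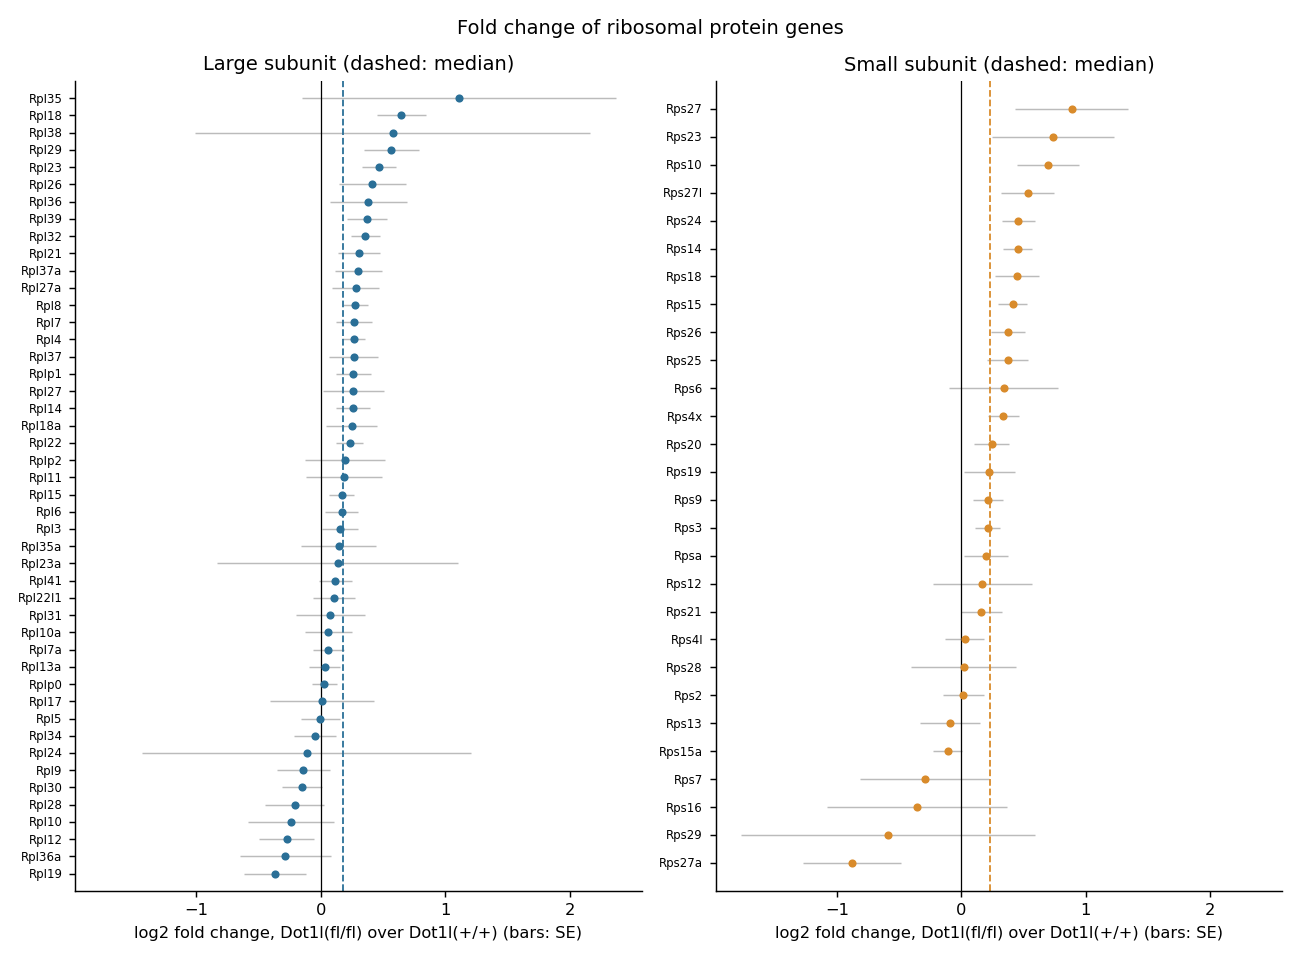
Log2 fold change of tested members in the libraries labelled Dot1l(fl/fl) against Dot1l(+/+), with SE bars, large and small subunit apart, and the median over all tested members of each subunit as a dashed line. Points lie mostly right of 0, with medians of 0.18 and 0.23, and the widest bars belong to genes of few counts such as Rpl38 and Rpl24.

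Abundance and shared sequence were set beside this shift. Of the 28 members at 50 CPM or more, 27 were above 0 with a median of 0.25, against 35 of 50 with a median of 0.16 below that level. Of the 27 tested members with at least 50% of windows unique, 23 were above 0 with a median of 0.26, against 38 of 50 with a median of 0.17 for the others. Both splits were made after the values were seen. Members with at least 50% of windows unique included some with fewer counts than their named copies, such as Rps24, Rpl14 and Rps16. The part of shared reads in the shift was not tested.

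Other genes of like length were also mostly above 0. Of the 2645 other protein-coding genes tested whose exon length lay between the members' quartiles (1268 to 2687 bases), 65.3% were above 0, with a median of 0.12. Among 76 mitochondrial ribosomal protein genes, which encode the separate ribosome of that organelle, 68 were above 0 with a median of 0.22. The shift is therefore not called particular to the cytosolic ribosome.

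The second comparison, Dot1l(fl/+) against Dot1l(+/+), shares its controls with the first. In it 33 of 46 large subunit genes and 22 of 32 small subunit genes were above 0, with a median of 0.08 in each. No member and no gene passed edgeR's test (0%) or DESeq2's (0%). At an unadjusted p under 0.05 edgeR had 8 members higher and 1 lower, against 2.16% and 2.86% of all genes. All 3 libraries lay above all of Dot1l(+/+) in 9 members and below in 1, with backgrounds of 5.56% and 5.97%.

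Rplp0 had the smallest p of the members here. It stood at 304, 342 and 362 CPM, all above the 259 to 274 CPM of Dot1l(+/+) (0.33 ± 0.09, edgeR adjusted p = 0.94). Rps24 stood at 71.6, 69.2 and 80.7 CPM, also above all of Dot1l(+/+) (0.35 ± 0.12). Rps19 was the member below Dot1l(+/+) in every library, at 29.1, 25.6 and 41.1 CPM (-0.46 ± 0.18, edgeR adjusted p = 0.94). The largest values of the large subunit were Rpl35 at 1.70, Rpl24 at 0.51, and Rpl23a and Rpl18 at 0.39, and the smallest Rpl38 at -0.56, Rpl27 at -0.34 and Rpl28 at -0.28. In the small subunit Rps28 at 0.74, Rps23 at 0.59, Rps27l at 0.58 and Rps6 at 0.40 led, and Rps29 at -0.53 and Rps7 at -0.26 were lowest beside Rps19.

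The third comparison set the libraries labelled Dot1l(fl/fl) against Dot1l(fl/+), and it shares samples with both others. Here 31 of 46 large and 22 of 32 small subunit genes were above 0, with medians of 0.10 and 0.13. No member passed edgeR's test (0% of all genes) or DESeq2's (0.00422%, 1 gene). At an unadjusted p under 0.05, 5 members were higher and 1 lower, against 1.86% and 2.16%. The libraries did not overlap in 17 members higher and 5 lower, with backgrounds of 10.2% and 9.57%.

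Rplp0 was the member lower, with 282 and 261 CPM below the 304 to 362 CPM of Dot1l(fl/+) (-0.31 ± 0.10, edgeR adjusted p = 0.998). Rps19 was at 0.68 ± 0.21 (edgeR adjusted p = 0.998), a value that rests on the 65.9 CPM of the library labelled Dot1l(fl/fl) 1. Without the library labelled Dot1l(fl/fl) 2 it was 1.05 ± 0.20 and passed edgeR's test, with 1 library assumed to vary like the other groups. Rps10 was at 0.74 ± 0.25, from 7.96, 12.3 and 11.98 CPM to 17.87 and 17.999 CPM, without overlap. Other large values were Rps27 at 0.76, Rpl38 at 1.14, Rpl29 at 0.65, Rpl27 at 0.60 and Rpl37 at 0.33. The smallest were Rps28 at -0.72, Rps27a at -0.69, Rps16 at -0.30, Rpl24 at -0.63, Rpl35 at -0.60 and Rpl36a at -0.34.

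**Figure D5:**
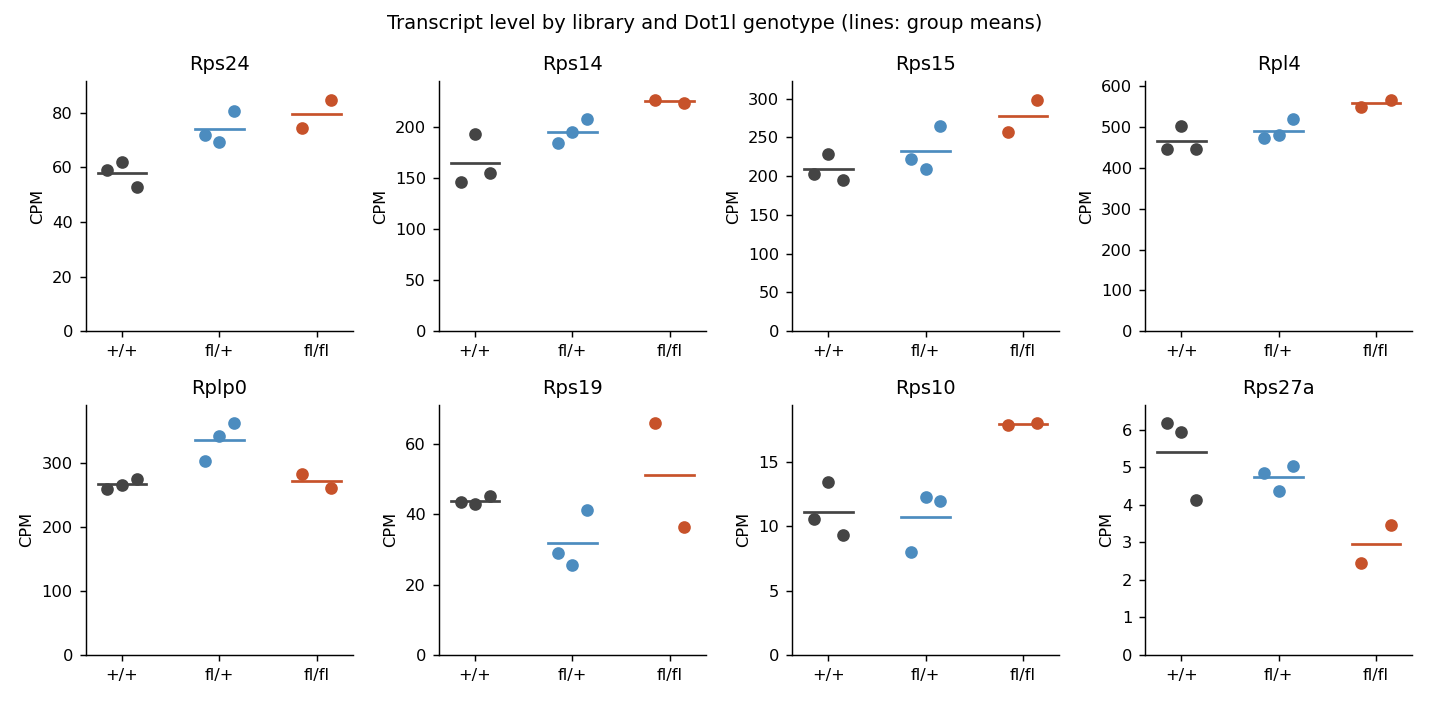
Level (CPM) of 8 members in each library by genotype, with a line at each group mean. Rps24, Rps14, Rps15 and Rpl4 have their highest mean in Dot1l(fl/fl), Rplp0 is highest in Dot1l(fl/+), the Rps19 points of Dot1l(fl/fl) lie far apart at 65.9 and 36.4 CPM, Rps10 is higher and Rps27a lower in both Dot1l(fl/fl) libraries than in any other.

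The order of the 3 group means was then read for each of the 78 tested members. It went up from Dot1l(+/+) through Dot1l(fl/+) to Dot1l(fl/fl) in 38 members, against 21.5% of all genes tested, and down in 8, against 22.2%. Dot1l(fl/+) was highest in 17 members and lowest in 15, against 27.5% and 28.7% of all genes tested. By library, the median log2 distance of small subunit genes from the Dot1l(+/+) mean was -0.05, 0.16 and -0.09 in Dot1l(+/+), 0.10, 0.09 and 0.26 in Dot1l(fl/+), and 0.32 and 0.30 in Dot1l(fl/fl). For large subunit genes it was -0.03, 0.17 and -0.16, then 0.08, 0.05 and 0.22, then 0.17 and 0.19. Dot1l(+/+) 2 and Dot1l(fl/+) 3 stood highest in their groups in both subunits, and for the large subunit they reached the Dot1l(fl/fl) values.

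Other genes of translation were read from lists, and none passed edgeR's test in any comparison. In Dot1l(fl/fl) against Dot1l(+/+), 34 of 43 initiation factors were above 0 (median 0.15), as were 10 of 13 elongation and release factors (0.13) and 15 of 18 further components of the ribosome or factors bound to it (0.29). Eif4g3, a scaffold of the cap-binding complex, stood at 316, 304 and 332 CPM in Dot1l(+/+) and lower, at 248 and 257 CPM, in Dot1l(fl/fl) (-0.33 ± 0.10, edgeR adjusted p = 0.269), and Eif2b4 was at 0.39 ± 0.14. Eef1b2, which reloads the elongation factor eEF1A with GTP, was at 0.36 ± 0.11 (edgeR adjusted p = 0.281), Gnb2l1, the small subunit scaffold RACK1, at 0.30 ± 0.10, and Srp14 of the signal recognition particle at 0.39 ± 0.13.

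The lists of ribosome assembly and of mTOR control did not share this direction. Over all genes tested 49.5% were above 0. Among other protein-coding genes of the members' exon length 65.3% were, with a median of 0.12. Exon lengths of the lists were not compared, so the part of length in this contrast was not tested. Of 58 biogenesis factors 27 were above 0 (median -0.02), among them Nop10 of the box H/ACA particles at 0.44 ± 0.15. Of 28 genes of mTOR and 5′ TOP control 11 were above 0 (median -0.12), and of 15 genes of ribosomal stress and quality control 9 (median 0.04). Larp1, which binds the pyrimidine tract at the start of ribosomal protein mRNAs, stood at 187, 171 and 200 CPM in Dot1l(+/+), 160, 159 and 145 CPM in Dot1l(fl/+), and 132.3 and 131.6 CPM in Dot1l(fl/fl). Its 3 genotypes did not overlap (Dot1l(fl/fl) against Dot1l(+/+), -0.50 ± 0.11, edgeR adjusted p = 0.147).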

How the data were processed

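RNA was sequenced from FACS-sorted cells of 8 libraries with counts, of 9 labelled. The authors deposited whole-number counts per gene, mapped to GRCm38.p4. Their processing notes name bcl2fastq 2.17, Trimmomatic 0.30 and DESeq2 1.10.1, and the treatment of reads that fit several genes is not given in the sources used here. The deposited table of the authors' own comparisons served only to pair identifiers with symbols. Its fold changes and p-values were not used.

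Counts were fitted with edgeR 4.0.16 (R 4.3.3), using TMM factors, filterByExpr, 1 model over the 3 genotypes and the quasi-likelihood test, with Benjamini-Hochberg adjustment over all 17988 genes tested. Alternatives were DESeq2 1.42.0, other size factors and filters, a length and GC offset, a replicate block, named copies added to their genes, and leaving out each library. GENCODE vM21 matched 47310 of 47729 identifiers and gave exon lengths. Some genes stay in every count and median but are not reported here by name. The tests were checked on simulated counts with larger changes than the members' medians, so the check does not bear on shifts of that size. Members, lists and the rule for named genes (genes with a known role, the extremes of level and of fold change in each subunit, any gene called, and up to 3 genes a list) were chosen with earlier results of these data known. Per the study, each litter gave 1 embryo of every genotype, and embryos of several litters were pooled per library. Which libraries share litters is not given in the sources used here, so the model had no litter term, and p-values measure the spread between pools.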

Additional observations from a re-analysis of the deposited data

How the results depend on the processing

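Calls among the members depended on the method in Dot1l(fl/fl) against Dot1l(+/+): edgeR called 0, DESeq2 5 and edgeR without a filter on low counts 3, and leaving out 1 library gave 0 to 4, the 4, Rps14 and Rps26 among them, without Dot1l(+/+) 2. Between Dot1l(fl/fl) and Dot1l(fl/+) 1 member, Rps19, was called without the filter, and leaving out 1 library gave 0 to 1. Over all genes, edgeR without the filter called 106 genes in Dot1l(fl/fl) against Dot1l(+/+), 11 for Dot1l(fl/+) against Dot1l(+/+) and 14 between Dot1l(fl/fl) and Dot1l(fl/+), and with the filter it called 75 in the first of these without Dot1l(+/+) 2, 50 without Dot1l(fl/fl) 2 and 4 without Dot1l(fl/fl) 1. Leaving out either library labelled Dot1l(fl/fl) gave 7 genes in the last. The median of small subunit genes ranged from 0.21 to 0.37 in Dot1l(fl/fl) against Dot1l(+/+) and from 0.038 to 0.19 in Dot1l(fl/+) against Dot1l(+/+) when 1 library was left out, the upper value each time without Dot1l(+/+) 2. The second was also 0.16 without Dot1l(fl/+) 2, 0.13 without Dot1l(fl/+) 1, 0.043 without Dot1l(+/+) 3 and lowest without Dot1l(fl/+) 3. The large subunit median ranged from 0.11 (without Dot1l(+/+) 3) to 0.29 (without Dot1l(+/+) 2) in the first and, without the same libraries, from 0.029 to 0.18 in the second. Setting Dot1l(fl/fl) against Dot1l(fl/+) gave 0.057 without Dot1l(fl/+) 1, 0.060 without Dot1l(fl/+) 2, 0.065 without Dot1l(fl/fl) 2 and up to 0.12 without Dot1l(fl/+) 3. With the length and GC offset alone, the large subunit medians of the 3 comparisons were 0.10, 0.043 and 0.041, and those of the small subunit 0.18, 0.054 and 0.087. The cause was not tested. The pools were matched by litter across genotypes, but no source used here ties the replicate numbers to litters, and same-numbered libraries did not deviate together. Deviations correlated at -0.031 to 0.045 for the 7 pairs of same-numbered libraries and at -0.051 to 0.045 for the 14 others. With the replicate block and the length and GC offset together, the large subunit median was 0.033 in Dot1l(fl/fl) against Dot1l(+/+) and -0.0064, reversed, when Dot1l(fl/fl) was set against Dot1l(fl/+). The block alone called 6, 0 and 4 genes in the 3 comparisons and no member, with large subunit medians of 0.15, 0.10 and 0.08, and with the offset added it called 17, 0 and 9. The other medians kept their direction under every alternative run, at 0.16 to 0.29 for the small subunit in the first comparison with all libraries. The share of counts differed by 0.0836 to 0.148 percentage points when 1 library was left out. Restricting the members by unique windows or level, and the transcript length, were alternatives chosen after seeing the data. With 2 libraries labelled Dot1l(fl/fl), of the lowest depth, small differences of genes with few counts were not detectable.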
